A study of Mus musculus with 6 samples.

Results

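The 2'-5'-oligoadenylate synthetases (OAS) are a family of interferon-induced sensors of double-stranded RNA. On binding such RNA, the active enzymes join ATP into chains of 2'-5'-linked adenylates (2-5A), a second messenger of the antiviral response. In the mouse the Oas1 gene has been copied into several neighbours, and interferon raises the active members through the factor ISGF3, a complex that contains Stat2 and Irf9 and binds the interferon-stimulated response element (ISRE). The genes described are Oas1a, Oas1g, Oas2, Oas3, Oasl1 and Oasl2, chosen by gene symbol. All 6 were among the 21675 genes of the deposited table and all 6 passed the low-count filter, which 12729 genes passed. A further 8 genes of the pathway are described after them.

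RNA was sequenced from a mouse aortic line, labelled endothelial, that carried an SV40 gene under TetOn control and had been expanded with doxycycline and then taken off it. The groups were a single cell clone with CRISPR deletion of Ptbp1 (KO), a line with human PTBP1 cDNA added back (Rescue) and the parental genotype (WT, which is taken here to be what the deposited files name basal), each with TNFalpha at 30 ng/mL (TNF) or untreated. That gave 6 groups with 1 library each and no replicates, so no difference has a replicate check and a single clone stands for the KO genotype. Libraries held 19598773 to 21626838 RSEM expected counts.

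The names of the deposited files and the labels disagreed for 4 of the 6 libraries. The library named KO with TNF is labelled WT with TNF, the one named KO is labelled Rescue, the one named Rescue is labelled KO with TNF, and the one named basal with TNF is labelled KO. The libraries named Rescue with TNF and basal carry those same labels (basal being WT). Ptbp2, which Ptbp1 represses, was at 106 and 128 TPM (a level scaled for transcript length and library size) in the libraries named KO with and without TNF, 45.3 and 42.2 TPM in those named Rescue and 20.7 and 22.8 TPM in those named basal. Ccl2, a chemokine that TNF induces, was at 1138, 5202 and 6017 TPM in the libraries named KO, Rescue and basal with TNF, against 105, 169 and 149 TPM in the untreated ones. Both genes thus go with the file names and against the labels. Ptbp1 RNA itself was at 275 and 266 TPM in the KO line, 129 and 127 TPM in the Rescue line and 270 and 236 TPM in the basal line, so its RNA was not lower in the KO line than in the basal line. Lines and treatments below are those of the file names; the values under the labels stand in the closing section. Of 10 endothelial markers, 8 or 9 were under 1 TPM in every library, Cldn5 was at 0 in all 6, and the list summed to 3.9 to 13.7 TPM, whereas 8 smooth muscle and fibroblast markers summed to 3537 TPM or more in each library, led by Col1a1 and Acta2, though 1 to 3 of these 8 were under 1 TPM, Myh11 in every library. The endothelial label therefore has little marker RNA behind it in these libraries. Of 8 macrophage and blood cell markers, 4 or 5 were at 0 in each library, while Cd68 was at 10.3 to 29.3 TPM and Lyz2 at 3.07 to 11.9 TPM.

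The genes lie in 2 groups on chromosome 5 (GRCm38, GENCODE vM21). Oas2, Oas3, Oas1g and Oas1a belong to a block of 10 OAS genes at chr5:120730333-120921652, and Oasl2 and Oasl1 form a pair at chr5:114896936-114937915. Oas1a and Oas1g have coding sequences of 1104 bases each that are 96.7% identical, so reads can be split between them wrongly. Oasl1 and Oasl2 are 59.3% identical over 1574 aligned columns. The coding sequences of Oas2 and Oas3 are longer, at 2256 and 3417 bases.

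Promoter windows of 300 bases (250 before and 50 after the gene start, RefSeq, GRCm38.p6) were at hand for 5 of the 6 genes, all but Oas2. They were searched on both strands for the ISRE core (GAAA, any 2 bases, GAAA), the gamma-activated site, GAS (TTC, any 3 bases, GAA) and the NF-kB site (GGG, any 2 bases, TTTCC). The ISRE core was found in Oas1a, Oas1g and Oas3, that is in 3 of 5 windows, and in 3.44% of all 32851 windows. The 3 windows are shown because the genes carrying them include the pair of near-identical copies, and capitals mark the ISRE core, which in Oas1a and Oas1g is 2 overlapping matches. They come from the minus strand, Oas1a at chr5:120907476-120907775, Oas1g at chr5:120887564-120887863 and Oas3 at chr5:120777610-120777909.
Oas1a: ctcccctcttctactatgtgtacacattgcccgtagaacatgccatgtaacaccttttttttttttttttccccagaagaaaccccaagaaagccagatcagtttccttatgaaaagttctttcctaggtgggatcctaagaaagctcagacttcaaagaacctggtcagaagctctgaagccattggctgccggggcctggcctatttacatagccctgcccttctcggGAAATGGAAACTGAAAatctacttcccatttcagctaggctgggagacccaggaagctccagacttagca
Oas1g: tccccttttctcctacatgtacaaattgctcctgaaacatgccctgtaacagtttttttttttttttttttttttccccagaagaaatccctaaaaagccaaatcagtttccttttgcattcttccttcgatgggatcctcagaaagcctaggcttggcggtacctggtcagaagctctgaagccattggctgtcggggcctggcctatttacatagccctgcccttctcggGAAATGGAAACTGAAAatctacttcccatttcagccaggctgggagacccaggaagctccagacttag
Oas3: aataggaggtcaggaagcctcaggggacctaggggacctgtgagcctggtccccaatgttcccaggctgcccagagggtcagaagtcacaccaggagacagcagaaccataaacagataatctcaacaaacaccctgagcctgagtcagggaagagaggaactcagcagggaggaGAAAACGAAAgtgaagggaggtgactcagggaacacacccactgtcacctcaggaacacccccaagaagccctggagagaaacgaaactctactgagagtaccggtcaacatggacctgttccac
The first match began 20 bases before the gene start in Oas1a, 18 bases before it in Oas1g and 75 bases before it in Oas3. The Oas1a and Oas1g windows were 85.3% identical over 306 aligned columns and shared the same overlapping pair of cores. A GAS match was found in the Oas1a window alone of the 5 (8.3% of all windows have one), and an NF-kB match in 0 of the 5 (1.63% of all windows). The Oasl1 and Oasl2 windows held 0 matches to any of these letters, which says only that the letters are not in these windows.

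All 6 OAS genes were far higher in untreated KO cells than in untreated basal and untreated Rescue cells. The untreated Rescue library had the lowest TPM of each gene, but for Oas1g and Oas2 it could not be told from the untreated basal library by its counts. Their summed level was 282.9 and 240.7 TPM in the KO line with and without TNF, 46.7 and 6.6 TPM in the Rescue line and 303.0 and 22.0 TPM in the basal line. By this sum the KO library without TNF sat near the basal library that had received TNF, but Oasl2 made up 59.5% and 67.8% of it in these libraries. The genes differed in this, with Oas3 at 4.99 against 12.7 TPM and Oas1a at 54.5 against 44.2 TPM. In these bulk samples, fewer cells with OAS RNA and less OAS RNA per cell cannot be told apart.

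Oas1a (chr5:120896256-120907521), one of the enzymatically active Oas1 copies, was at 72.4 and 54.5 TPM in KO cells with and without TNF, 3.65 and 0.30 TPM in Rescue cells and 44.2 and 2.92 TPM in basal cells. Both KO libraries were above every other library. The untreated Rescue value rests on 5.73 expected counts, and its deposited 95% interval runs from 0.110 to 0.619 TPM. Oas1g (chr5:120876142-120887613), its near-identical copy, was at 16.9 and 11.6 TPM in KO cells, 0.37 and 0.11 TPM in Rescue cells and 11.8 and 0.32 TPM in basal cells. It held 2.27, 6 and 7.11 expected counts in the untreated Rescue, untreated basal and TNF-treated Rescue libraries, so these 3 libraries cannot be ordered. The deposited posterior SD of its count was 7.69 in the KO library with TNF, the same as for Oas1a, while it was at most 0.58 for the 4 other OAS genes in any library.

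Oas2 (chr5:120730333-120749853), a synthetase with more than one catalytic-like unit, was at 29.1 and 18.9 TPM in KO cells, 3.24 and 0.50 TPM in Rescue cells and 22.9 and 0.60 TPM in basal cells. The untreated Rescue and basal libraries, with 21 and 23 expected counts, did not differ beyond counting error. Oas3 (chr5:120753098-120777661), the largest synthetase of the family, was at 10.3 and 4.99 TPM in KO cells, 1.02 and 0.16 TPM in Rescue cells and 12.7 and 0.64 TPM in basal cells. For Oas3 the basal library with TNF was the highest of the 6 and the KO library with TNF came next.

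The OAS-like genes encode proteins with ubiquitin-like ends. Oasl1 (chr5:114923240-114937915), which lacks synthetase activity and is known in the mouse to hold back translation of Irf7, was at 6.94 and 7.47 TPM in KO cells, 0.63 and 0.18 TPM in Rescue cells and 6.08 and 1.20 TPM in basal cells. The deposited 95% intervals of its 3 highest libraries overlapped. Oasl2 (chr5:114896936-114912234), which in the mouse is an active synthetase, was at 147 and 143 TPM in KO cells, 37.8 and 5.30 TPM in Rescue cells and 205 and 16.4 TPM in basal cells. It was the most abundant of the 6 in every library and made up 52.0% and 59.5% of the summed OAS TPM in KO cells, 80.9% in both Rescue libraries, and 67.8% and 74.2% in basal cells. The Oas1a share was 25.6% and 22.6% in KO cells, 7.82% and 4.58% in Rescue cells and 14.6% and 13.2% in basal cells, so the KO libraries held the larger Oas1a shares. The second deposited quantification gave Oasl2 a higher level, at 232 and 219 TPM in KO cells, 61.8 and 8.5 TPM in Rescue cells and 331 and 26.3 TPM in basal cells, with the same order of libraries. It also gave Oas1g 24.0 and 13.9 TPM in KO cells, 0.9 and 0.2 in Rescue cells and 17.6 and 0.8 in basal cells. The TPM of Oas1g thus depends on the method. In KO cells with TNF, Oas1a and Oas1g had 1367.73 and 340.27 RSEM expected counts, against 2051.6 and 553.4 in the second quantification. In untreated basal cells they had 51.0 and 6.0, against 71.7 and 16.3. Whether the split of reads between Oas1 copies depends on the method was not tested.

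**Figure D1:**
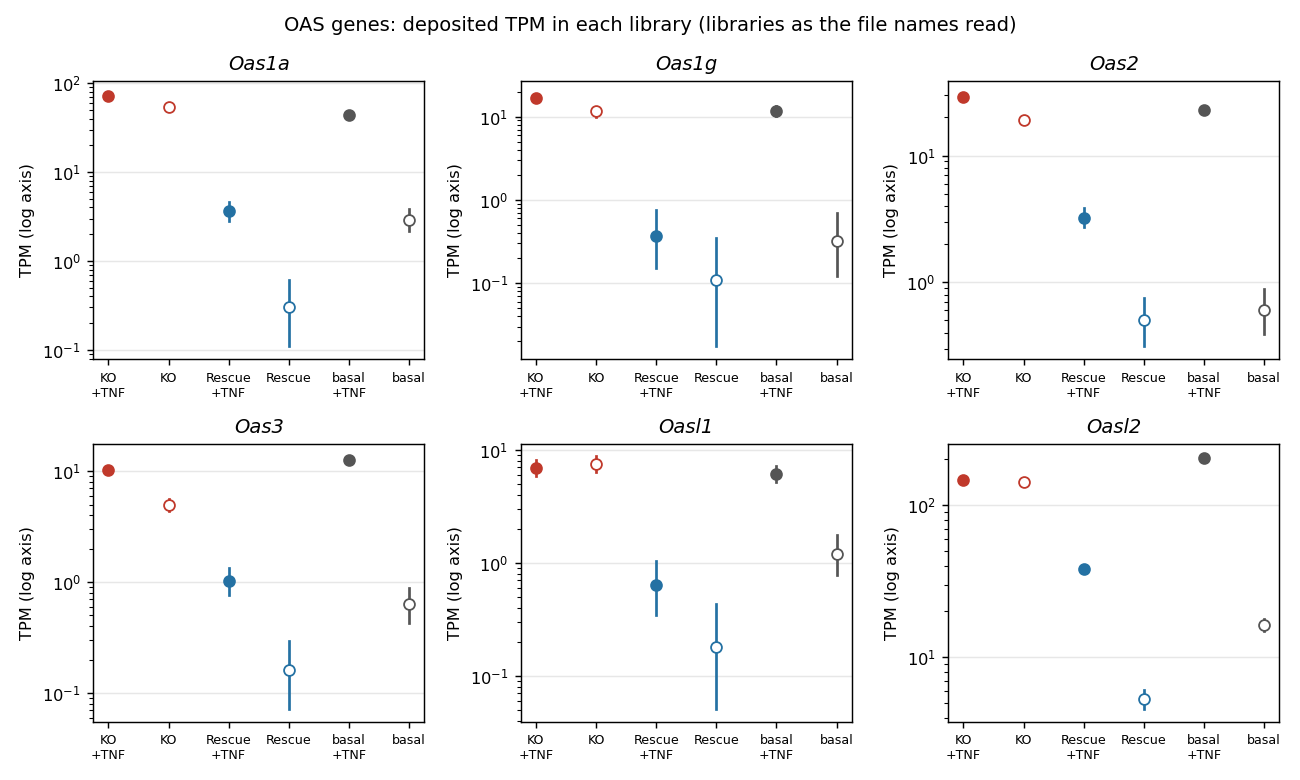
Deposited TPM (log axis) of the 6 OAS genes in each library, with filled points for TNF, open points for untreated cells and vertical lines for the deposited 95% interval of that library. The untreated KO point of each gene lies above the untreated Rescue and basal points. The lowest untreated KO point is that of Oas3, at 4.99 against 0.16 and 0.64 TPM. The highest is that of Oasl2, at 143 against 5.30 and 16.4 TPM.

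The response to TNF was then compared between the lines, as ratios of the library with TNF over the untreated one. In the basal line all 6 genes were at least 2-fold higher with TNF, where 5.74% of all genes were, with a median log2 ratio of 4.18 and a range of 2.37 to 5.27. The Oas2 ratio was 38.5-fold (log2 5.27, 95% counting interval 4.79 to 6.04) and the Oas1a ratio 15.9-fold (log2 4.0, 3.64 to 4.48). In the Rescue line all 6 genes were again at least 2-fold higher, against 4.42% of all genes, with a median of 2.57. There the Oasl2 ratio was 7.44-fold (log2 2.90, 2.68 to 3.15), while that of Oas1g, from 7 over 2 counts, was 2.38-fold with an interval that includes no change (log2 1.25, -0.43 to 5.27). In the KO line 1 of 6 genes, Oas3, was at least 2-fold higher, against 2.73% of all genes, with a median of 0.55. The Oas3 ratio in KO cells was 2.17-fold (log2 1.12, 0.91 to 1.35), that of Oasl2 1.09-fold (log2 0.12, 0.06 to 0.18) and that of Oasl1 0.983-fold (log2 -0.02, -0.36 to 0.31). The median over all 12729 genes was between -0.02 and 0 in each line. These intervals hold counting error of the 2 libraries and nothing of the spread between cultures, and PCR copies are not independent molecules.

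The difference between lines was tested with edgeR's quasi-likelihood test in a model that gives the KO line its own TNF response and sets it against the response shared by the basal and Rescue lines. The OAS genes' own term was lower in KO cells for 5 of 6 genes at a Benjamini-Hochberg adjusted p under 0.05, against 0.998% of all 12729 genes lower, with a median of -3.38 over the 6 on the log2 scale and 0.01 over all genes. The term was -3.49 ± 0.23 for Oas1a (edgeR adjusted p = 0.0012), -3.28 ± 0.29 for Oasl2 (0.00355) and -2.99 ± 0.42 for Oas3 (0.0194). It was -4.22 ± 0.60 for Oas1g (0.021) and -3.75 ± 0.58 for Oas2 (0.0264), while Oasl1, at -2.37 ± 0.46, missed the threshold (0.0566). The value after ± is the difference divided by the square root of the test's F. Its 1 residual degree of freedom is how far the basal and Rescue responses differ, so these p-values treat those lines as replicates of each other. With the second deposited quantification 1 of the 6 genes, Oas1a, passed (term -3.55, adjusted p = 0.029), and with RLE size factors 2 of 6 did, Oas1a and Oasl2.

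**Figure D2:**
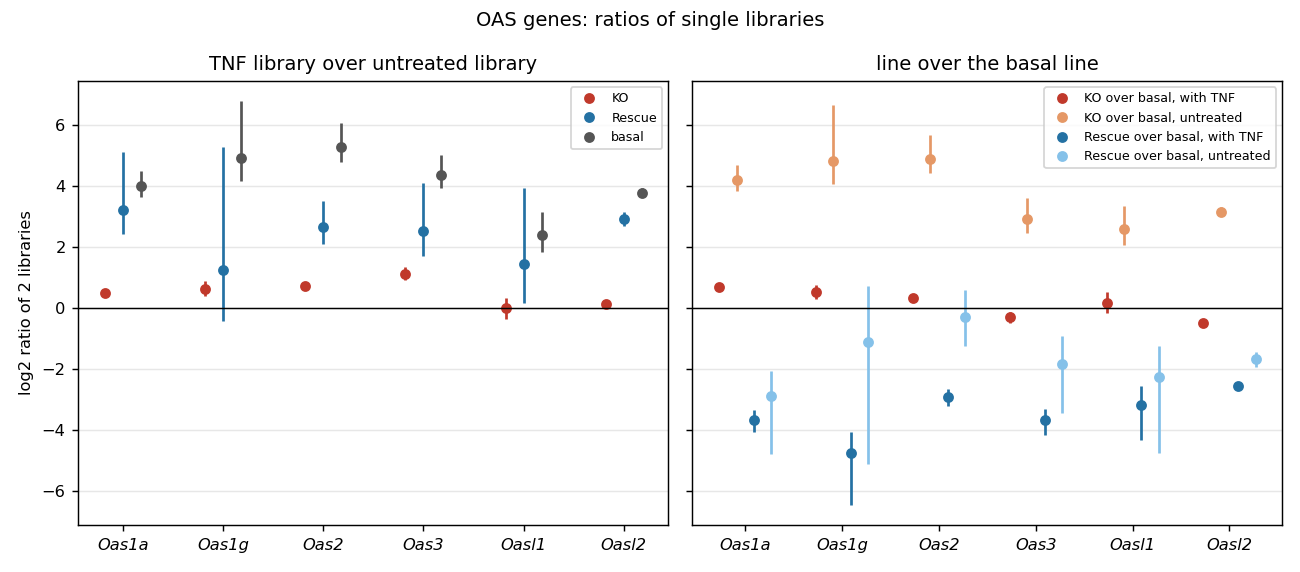
Log2 ratios of single libraries for the 6 OAS genes with 95% counting intervals, on the left TNF over untreated cells in the KO, Rescue and basal lines, on the right the KO and Rescue lines over the basal line. The KO points lie between -0.02 and 1.12 on the left, below the basal points of 2.37 to 5.27, and KO over basal is 2.57 to 4.89 untreated but -0.50 to 0.69 with TNF.

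TNF over the 3 lines together was asked in an additive model of line and TNF. In it 0 of 6 OAS genes passed the threshold with edgeR, against 11.2% of all genes rising and 22.0% changed in either direction, although 4 of 6 had an unadjusted p under 0.05 and DESeq2 called 3. Their log2 differences ran from 1.12 for Oasl1 (adjusted p = 0.196) to 2.52 for Oas3 (adjusted p = 0.058), with a median of 2.21, and all 6 were positive. With 1 library left out at a time, the differences of all 6 stayed positive, from 0.24 at the lowest (Oasl1) to 4.83 at the highest (Oas1g). The 2 residual degrees of freedom of the additive model measure how unequal an effect was across lines or treatments. The summed level of the 8 smooth muscle and fibroblast markers also differed with TNF. It was at 3998.5, 3536.9 and 4224.3 TPM in the KO, Rescue and basal lines with TNF, against 6348.0, 7836.2 and 8001.9 TPM untreated. Of these 8 markers 6 fell in the additive model. There 22.0% of all genes changed in either direction and 11.2% rose, and the share that fell is not given here. Their part in the OAS result was not tested.

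Untreated KO cells had more RNA of all 6 OAS genes than untreated basal cells, with a median log2 ratio of 3.68 and a range of 2.57 to 4.89, and all 6 were at least 2-fold higher where 5.08% of all genes were. Oas2 was 29.6-fold higher (log2 4.89, 4.41 to 5.67), Oas1g 28.0-fold (log2 4.81, 4.05 to 6.66, from 227 over 6 counts) and Oas1a 18.4-fold (log2 4.20, 3.84 to 4.68). Oasl2, at 8.88-fold (log2 3.15, 3.02 to 3.29), Oas3 and Oasl1 were nearer to the basal level. With TNF in both lines, 0 of 6 genes differed 2-fold either way, where 6.34% of all genes were that much higher and 10.1% that much lower in KO cells. Oas1a was then 1.62-fold higher in KO cells (log2 0.69, 0.57 to 0.82) and Oasl2 0.708-fold (log2 -0.50, -0.55 to -0.45). Averaged over both treatments in the additive model, 0 of 6 genes passed with edgeR (adjusted p = 0.10 to 0.351, 1 of 6 with an unadjusted p under 0.05, 0 by DESeq2), against 33.0% of all genes, with a median log2 difference of 1.70. With 1 library left out at a time, the difference stayed positive for Oas1a (0.71 to 4.2), Oas1g (0.54 to 5.11), Oas2 (0.48 to 4.73) and Oasl1 (0.21 to 2.58). It ran from -0.25 to 2.81 for Oas3 and from -0.34 to 2.94 for Oasl2. Markers of other cell types differed between the same lines. In untreated cells 3 of 8 smooth muscle and fibroblast markers and 4 of 6 tested endothelial markers were at least 2-fold lower in KO than in basal cells. Those 4 had at most 29 expected counts in either library, and 1 endothelial marker, Egfl7, was at least 2-fold higher, at 12.8 against 5.43 TPM. The share of all genes at least 2-fold lower is not given here. Thy1 was at 0.12 and 0.24 TPM in KO cells with and without TNF, 0.12 and 0.23 TPM in Rescue cells and 41.5 and 77.2 TPM in basal cells, and Pdgfra at 18.3 and 18.5, 21.1 and 20.3, and 110 and 136 TPM. Their part in the OAS differences was not tested.

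Rescue cells had less RNA of the OAS genes than KO cells in both treatments. Untreated, all 6 were at least 2-fold lower, against 5.19% of all genes, with a median log2 ratio of -5.01, from -4.76 for Oas3 (8 over 248 counts) to -7.08 for Oas1a (6 over 1002 counts). With TNF all 6 were again at least 2-fold lower, against 5.19% of all genes, with a median of -3.38 and a range of -5.28 to -2.06. In the additive model 5 of 6 fell in Rescue against KO with edgeR, where 10.6% of all genes fell, with a median of -4.43 over the 6. Oas1a fell by 5.69 ± 1.04 on the log2 scale (adjusted p = 0.027), Oas1g by 6.38 ± 1.30 (0.034) and Oasl1 by 4.42 ± 0.76 (0.0246), and Oasl2, at -3.75 ± 0.97, missed the threshold (adjusted p = 0.0531). All these calls were lost without the untreated Rescue library, and again without the Rescue library with TNF, where 0 genes passed in the whole refit. With the second quantification 3 of 6 passed.

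Rescue cells were also below basal cells. With TNF all 6 genes were at least 2-fold lower, against 7.86% of all genes, with a median log2 ratio of -3.44. Oas1g was the farthest apart (log2 -4.78, -6.46 to -4.06, from 7 over 252 counts) and Oasl2 the nearest (log2 -2.56, -2.65 to -2.47). Untreated, 5 of 6 had ratios at least 2-fold lower, against 7.13% of all genes, but that of Oas1g, from 2 over 6 counts, has an interval that includes no change (log2 -1.11, -5.12 to 0.71), and Oas2 was at 0.814-fold (log2 -0.30, -1.25 to 0.59). In the additive model 1 of 6, Oasl1, fell in Rescue against basal with edgeR (-3.16 ± 0.79, adjusted p = 0.0448), where 12.1% of all genes fell, and the other 5 had log2 differences of -4.48 to -2.27. DESeq2 called 4 of 6 and the second quantification 0 of 6. The Oasl1 call was also lost without the untreated Rescue library, without the Rescue library with TNF and without the basal library with TNF. With 1 library left out at a time, the Oasl1 difference ran from -3.94 to -1.76. Oas2 was the only one of the 6 to turn positive (-3.36 to 0.76). The comparisons of KO and of Rescue with basal share the basal libraries, and those of Rescue with KO and of KO with basal share the KO libraries.

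Other genes of the 2-5A pathway were set beside the synthetases. Abce1, a factor that recycles ribosomes and is counted with this pathway, was at 127 and 95.2 TPM in KO cells, 111 and 92.6 TPM in Rescue cells and 82.6 and 64.0 TPM in basal cells. Abce1 rose by 0.60 ± 0.08 on the log2 scale in KO against basal (edgeR adjusted p = 0.0074), by 0.39 ± 0.08 in Rescue against basal (0.0261) and by 0.44 ± 0.06 with TNF over the lines (0.0155). Pde12, a phosphodiesterase that degrades 2-5A, was at 13.0 and 12.8 TPM in KO cells, 19.0 and 15.4 TPM in Rescue cells and 13.0 and 10.7 TPM in basal cells, and rose in Rescue against basal by 0.45 ± 0.11 (0.0467).

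Of the other Oas1 copies, Oas1b, whose product lacks synthetase activity and is known for resistance to flaviviruses, was at 21.0 and 20.9 TPM in KO cells, 6.97 and 3.30 TPM in Rescue cells and 21.8 and 5.08 TPM in basal cells. The annotation gives it as a polymorphic pseudogene. It fell by 2.28 ± 0.52 in Rescue against KO (adjusted p = 0.0422). Oas1c was at 7.55 and 8.64 TPM in KO cells, 3.52 and 2.87 TPM in Rescue cells and 7.04 and 7.20 TPM in basal cells, and fell in Rescue against KO by 1.43 ± 0.18 (0.0139) and in Rescue against basal by 1.24 ± 0.18 (0.0132). Its TNF difference over the lines was 0.10 (0.643), and its promoter window also holds 2 overlapping ISRE cores, which lie on the opposite strand just before the annotated start of the neighbouring Oas1b. Oas1d, Oas1e, Oas1f and Oas1h had between 0 and 5 expected counts in each library and were not tested. So of these 8 pathway genes 4 were tested, and in KO against basal 1 rose (16.8% of all genes did) and 0 fell, in Rescue against KO 0 rose and 2 fell (10.6%), in Rescue against basal 2 rose (12.5%) and 1 fell (12.1%), and with TNF 1 rose (11.2%) and 0 fell. With 4 genes these counts are too small to set against those shares. In the term for the KO line's own TNF response 0 of the 4 passed with edgeR, and 1 of the 4, Oas1b (-1.69, adjusted p = 0.0936), had an unadjusted p under 0.05.

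**Figure D3:**
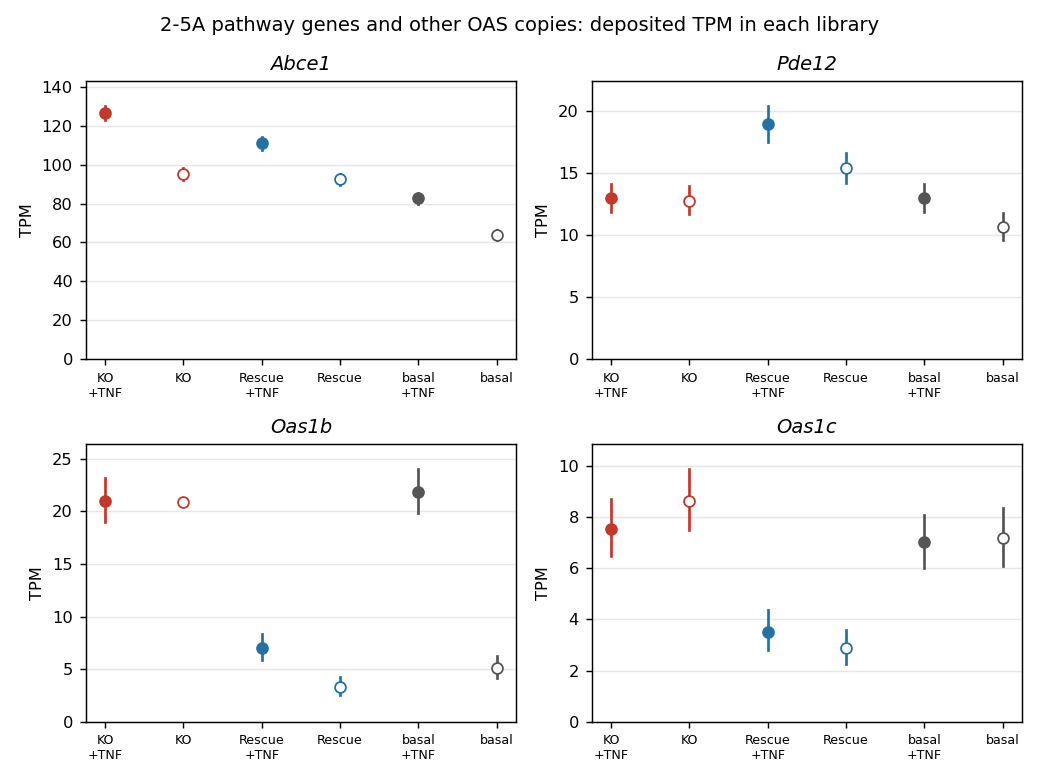
Deposited TPM of Abce1, Pde12, Oas1b and Oas1c in each library, on axes that start at 0, with filled points for TNF, open points for untreated cells and lines for the deposited 95% interval (none for Oas1b in untreated KO cells, whose transcripts were summed). Abce1 is lowest in the untreated basal library, at 64.0 TPM. Oas1b is at 20.9 TPM in untreated KO cells against 5.08 TPM in untreated basal cells. Its KO libraries and its basal library with TNF are the highest and lie close together, at 20.9 to 21.8 TPM. The second quantification gave the KO libraries with and without TNF the reverse order, at 21.0 and 24.5 TPM.

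Other interferon-induced genes were set beside the OAS genes. Of 11 effectors in the table (Bst2, Cmpk2, Ifi27l2a, Ifi44, Ifit1, Ifit2, Ifit3, Isg15, Mx1, Mx2 and Rsad2), the median log2 ratio of TNF over untreated was 0.28 in the KO line, 2.46 in the Rescue line and 4.16 in the basal line, near the OAS medians of 0.55, 2.57 and 4.18. Isg15, a ubiquitin-like modifier, was at 507 and 443 TPM in KO cells, 116 and 22.4 TPM in Rescue cells and 464 and 27.0 TPM in basal cells. Bst2, a tether of budding virions, was at 893 and 726 TPM in KO cells, 202 and 51.0 TPM in Rescue cells and 646 and 67.9 TPM in basal cells. In the term for the KO line's own TNF response 7 of these 11 were lower at the threshold, against 0.998% of all genes, among them Ifi44 (-4.19, adjusted p = 0.0108) and Mx2 (-3.11, 0.00369), and 0 were higher. In KO against basal 1 of the 11 effectors rose, Ifi27l2a (3.66, adjusted p = 0.0112), where 16.8% of all genes rose. Ifi27l2a was at 332 and 535 TPM in KO cells, 15.6 and 12.0 TPM in Rescue cells and 54.1 and 16.4 TPM in basal cells.

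The sensors and the interferon input had smaller median ratios. Over 11 sensors of double-stranded RNA and cytosolic DNA the medians were 0.18, 0.85 and 1.73 in the KO, Rescue and basal lines, and 3 of 11 were lower in the KO line's own term (0.998% of all genes), Zbp1 (-4.87, adjusted p = 0.00364), Ifih1 (-1.78, 0.0264) and Ddx58 (-1.39, 0.0442). Zbp1, a sensor of Z-form nucleic acids, had log2 TNF ratios of 0.67, 4.36 and 5.96 in the KO, Rescue and basal lines, above every OAS gene in the Rescue and basal lines. Ifih1, the sensor MDA5, was at 26.4 and 26.0 TPM in KO cells, 7.86 and 3.05 TPM in Rescue cells and 27.8 and 6.45 TPM in basal cells. For 11 tested genes of interferon input and ISGF3 the medians were 0.10, 0.89 and 1.24, and 4 were lower in that term, Irf1, Irf7, Irf9 and Usp18. Irf7, the interferon-induced factor that amplifies interferon production, was at 113 and 112 TPM in KO cells, 24.9 and 5.53 TPM in Rescue cells and 84.9 and 9.42 TPM in basal cells. RNA of interferon beta (Ifnb1) was at 0 to 4 expected counts in each library and that of Ifna4 at 0 or 1, so their differences were not detectable at this depth.

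TNF targets of NF-kB had another order. All 8 check genes (Birc3, Ccl2, Cxcl1, Icam1, Nfkbia, Sele, Tnfaip3 and Vcam1) were at least 2-fold higher with TNF in every line, with medians of 1.40, 2.89 and 3.08 on the log2 scale in the KO, Rescue and basal lines, and all 8 rose in the additive model. Ccl2 was among the genes that decided for the file names as the grouping, so this rise is no independent result. In untreated KO cells against untreated basal cells their median was -0.73, with 0 of 8 at least 2-fold higher and 3 of 8 at least 2-fold lower, while all 6 OAS genes were higher. The share of all genes at least 2-fold lower there is not given here, and Icam1 and Sele had at most 10 expected counts in either library. With TNF 7 of 8 check genes were at least 2-fold lower in KO than in basal cells (10.1% of all genes were), with a median of -2.75. There 0 of 6 OAS genes differed 2-fold. In the KO line's own term 3 of 8 were lower (0.998% of all genes), Ccl2, Nfkbia and Vcam1.

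**Figure D4:**
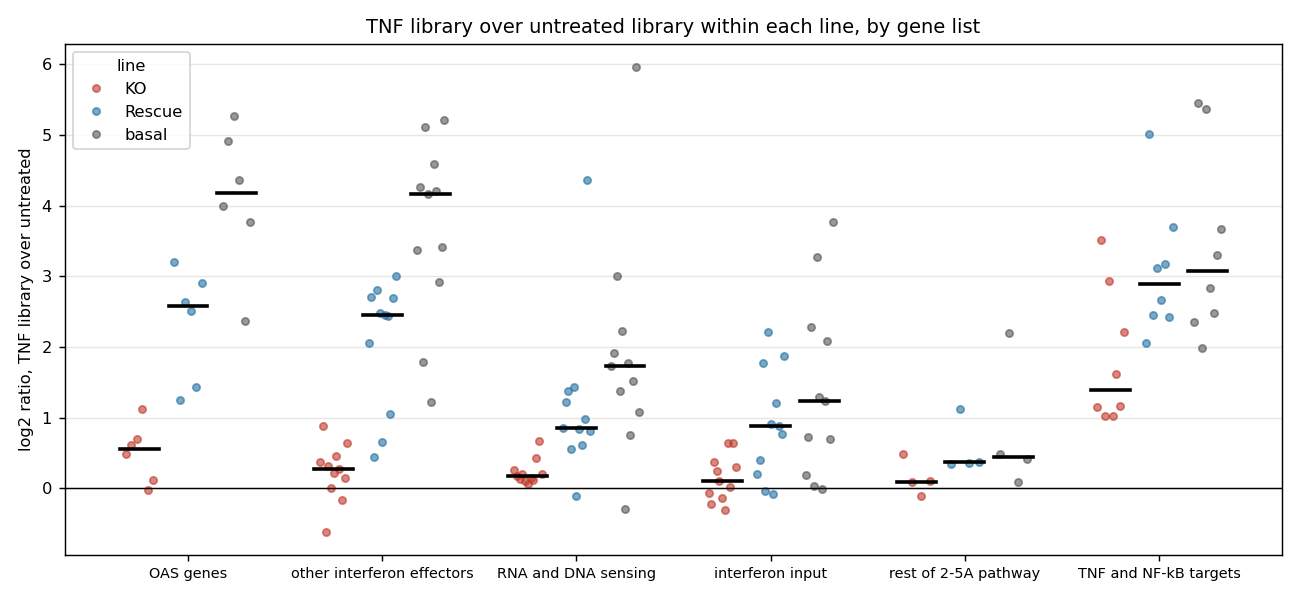
Log2 ratio of the TNF library over the untreated library for each tested gene (points) of 6 gene lists in the KO, Rescue and basal lines, with a black bar at the list's median. The OAS genes and the other interferon effectors have basal medians of 4.18 and 4.16 and KO medians of 0.55 and 0.28, whereas the TNF and NF-kB targets have a KO median of 1.40.

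The 6 OAS genes had much the same pattern over the libraries. Pearson r of log2 levels between pairs ran from 0.906 to 0.985 over 15 pairs and 6 libraries, which share their depth and scaling with one another. Among 12723 other genes, 10 had an r of at least 0.99 with the mean of the 6 standardised OAS patterns. The 8 most alike were N4bp1 (r = 0.999), Reep5 (0.998), Oas1b (0.997), Lgals3bp (0.994), Tgtp2 (0.993), Ifi44 (0.993), Ifih1 (0.992) and Trim34a (0.992). The likeness is one of shape, not of size. N4bp1 was at 51.7 and 51.5 TPM in KO cells, 41.9 and 39.4 TPM in Rescue cells and 50.5 and 41.0 TPM in basal cells, a far narrower range than Ifi44, at 95.3 and 80.7, 6.24 and 0.88, and 64.1 and 1.95 TPM in the same order of libraries.

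Counts of reads across splice junctions, deposited separately, gave the same order of libraries as TPM for Oasl2, Oas1a and Oas3, and another order for Oas1g, Oas2 and Oasl1. Oasl2 had 1982 and 1802 junction reads in KO cells, 447 and 62 in Rescue cells and 3064 and 169 in basal cells, and Oas1a had 927 and 719, 42 and 5, and 642 and 31. For Oas2 the untreated Rescue and basal libraries had 15 and 14 junction reads, the reverse of their order in TPM. For Oas1g the Rescue library with TNF had 4 and the untreated basal library 7, also the reverse. Oasl1 had 47 and 77 in KO cells with and without TNF and 74 in basal cells with TNF, whereas in TPM the basal library was the lowest of these. Splicing nodes (parts of a gene between neighbouring splice sites, with psi the fraction of transcripts that include them) were compared where at least 20 reads backed psi in at least 3 libraries. Of 33 such nodes in the 6 genes, 30 had a psi of at least 0.9 in every library counted, and 1 had a psi range of at least 0.1. That node is a cassette exon of Oasl2 of 101 bases at chr5:114902273-114902373 on the plus strand (GRCm38), present in an annotated protein-coding transcript. The same stretch also lies within a longer exon of an annotated retained-intron transcript. Its psi was 0.214 and 0.222 in KO cells with and without TNF (238 and 234 reads), 0.404 and 0.333 in Rescue cells (73 and 4 reads) and 0.213 and 0.488 in basal cells (399 and 32 reads). The Wilson 95% intervals, for counting error only, were 0.167 to 0.271 and 0.174 to 0.280 in KO cells, 0.293 to 0.512 and 0.046 to 0.699 in Rescue cells and 0.176 to 0.256 and 0.336 to 0.664 in basal cells. Included reads were rounded to whole numbers for these intervals, which matters most at the 4 reads of untreated Rescue cells. The psi was lowest in the 3 libraries with the most Oasl2 RNA. With 1 library per group there is no test of this difference, and the part of the Oasl2 level in it was not tested.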

How the data were processed

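Messenger RNA libraries from 6 groups were analysed, 1 per group, made with a SMARTER kit per the labels' protocols. RSEM expected counts and TPM per gene were deposited by the authors (per the submitters' processing notes; version and genome build not given in the sources used here), and for the library named KO the deposited transcript values were summed to genes. A second deposited quantification (26882058 to 30011222 estimated counts per library, by a tool that no source used here names), junction read counts and psi, a fraction from 0 to 1 per the file headers, were used as well. Its Ensembl identifiers were matched to GENCODE vM21 for gene names.

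Libraries were grouped as the file names read, because check genes went against the labels, and again by the labels. Expected counts were rounded to whole numbers and tested with edgeR 4.0.16 in R 4.3.3 (TMM scaling, filterByExpr, quasi-likelihood test, Benjamini-Hochberg adjusted p under 0.05 over 12729 genes). The additive model of line and TNF left 2 residual degrees of freedom, the model with a separate TNF response in KO 1. Single-library ratios used TMM-scaled CPM with a prior count of 2, and their 95% counting intervals are exact binomial ones without a prior. Means with an SD cannot be given for 1 library. Alternatives were DESeq2 1.42.0, RLE factors, no low-count filter, the second quantification, a prior count of 0.5, TPM with a pseudocount of 0.1, label groups and leaving out each library. The additive fit was tried on simulated data with a known TNF change that was the same in every line. Recovery of line differences and of a separate KO response was not tried. Members and gene lists were chosen with earlier results of these data known. All 6 OAS genes are named, and of each list the genes called in a comparison or the 4 of highest mean TPM, with the 8 genes most alike in pattern. No source used here states strand, so antisense reads cannot be told apart. Some genes of the lists are not reported here.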

Additional observations from a re-analysis of the deposited data

Results flagged for a closer look

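The TNF response differed between the KO line and the basal and Rescue lines by the test of the difference itself for 5 of the 6 OAS genes. The difference on the log2 scale, with the KO response lower, was -3.49 for Oas1a, -4.22 for Oas1g, -3.75 for Oas2, -2.99 for Oas3 and -3.28 for Oasl2 (edgeR adjusted p = 0.0012 to 0.0264). With the second deposited quantification 1 of 6 genes passed and with RLE size factors 2 of 6, and the 1 residual degree of freedom treats the basal and Rescue lines as replicates of each other. The untreated KO library was already at 54.5 TPM for Oas1a, against 2.92 TPM in the untreated basal library. The KO group is 1 clone with 1 library per treatment, and its difference from other clones was not tested.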

How the results depend on the processing

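Depth limits the untreated Rescue values most, where Oas1a, Oas1g, Oas3 and Oasl1 have 2.27 to 8 expected counts. No paired analysis was possible because each group has 1 library and the labels give no replicate numbers that pair libraries. The separate TNF term for KO could not be refitted with a library left out, since no residual degree of freedom remains. The 9 medians of the single-library ratios kept their sign under the other prior count, TPM and the second quantification, and of 54 ratios of single genes 4 moved beyond their counting interval, all with TPM. OAS genes called in the TNF comparison were 3 with DESeq2 and 1 with no low-count filter, against 0; in Rescue against KO 3 with the second quantification, against 5; in Rescue against basal 4 with DESeq2, 2 with no filter and 0 with the second quantification, against 1; and in the KO line's own TNF term 2 with RLE factors and 1 with the second quantification, against 5. In that term 61 of all genes were called with RLE factors, 278 with no filter and 13 with the second quantification, against 175. Leaving out 1 library each moved the number of all genes called to between 3 and 3744 (TNF, 2802 with all libraries), 1075 and 4048 (KO against basal, 4204), 0 and 2716 (Rescue against KO, 2601) and 0 and 4581 (Rescue against basal, 3128), and the number of OAS genes called to between 0 and 6 in each of these 4. Directions turned in KO against basal for Oas3 (-0.25 to 2.81) and Oasl2 (-0.34 to 2.94), whose values were -0.25 and -0.34 without the untreated KO library and, for Oas3, -0.19 without the untreated basal library, and in Rescue against basal for Oas2 (-3.36 to 0.76), positive without the basal library with TNF. The causes were not tested.

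With groups from the labels edgeR called 0 of 12729 genes in all 5 comparisons (27 to 826 with an unadjusted p under 0.05), and 0 with any single library left out in the 4 that could be refitted. DESeq2 called 93 (TNF), 0 (KO against WT), 3 (Rescue against KO), 9 (Rescue against WT) and 291 (own TNF term), with 1 OAS gene in the last. The OAS medians of single-library ratios under the labels were -5.80 for TNF in KO, -2.97 for TNF in Rescue, 4.18 for KO over WT untreated, -0.25 for Rescue over KO untreated, 3.68 for Rescue over WT untreated, -5.89 for KO over WT with TNF and 2.57 for Rescue over KO with TNF, where the file names give 0.55, 2.57, 3.68, -5.01, -1.76, 0.25 and -3.38. Single genes whose sign turned under the labels were, for TNF in KO, Oas1a (-6.88), Oas1g (-6.03), Oas2 (-5.56), Oas3 (-6.20) and Oasl2 (-5.45); for TNF in Rescue, Oas1a (-3.88), Oas1g (-4.67), Oas2 (-2.54), Oas3 (-2.26), Oasl1 (-3.40) and Oasl2 (-1.94); for Rescue over KO untreated, Oas1a (0.20) and Oasl1 (0.20); for Rescue over WT untreated, Oas1a (4.20), Oas1g (4.81), Oas2 (4.89), Oas3 (2.92), Oasl1 (2.57) and Oasl2 (3.15); for KO over WT with TNF, Oas1a (-7.57), Oas1g (-6.54), Oas2 (-5.89) and Oasl1 (-4.80); and for Rescue over KO with TNF, Oas1a (3.21), Oas1g (1.25), Oas2 (2.64), Oas3 (2.51), Oasl1 (1.43) and Oasl2 (2.90).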
